A study of Mus musculus with 12 samples.

Results

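Gene expression at 10 months of age was compared with both younger and older mice in the ventral tegmental area (VTA). The 4 arrays of 10 months old mice, of 12 arrays in all, were set against the average of the 2 months mean and the 18 months mean. This contrast, on the log2 scale, is positive for a gene whose level lay higher at 10 months than midway between the other ages and negative for one that lay lower. All mice were wild type of the C57 strain (C57BL/6 in the study's methods), untreated, and the labels set the groups apart by age alone, 2 months (young), 10 months (middle aged) or 18 months (late middle-aged). The whole region was cut by hand from thick coronal sections, and each array held RNA pooled from 5 mice, so that an array is 1 pool and no value belongs to a single mouse. Arrays 3 and 4 of 2 months differed in 1 probe set by more than 1 on the log2 scale, against 85 to 4905 probe sets in other pairs of the same age. They were counted as 1 sample by their mean, so the fit held 3 samples of 2 months and 4 of each later age. The contrast asks whether 10 months lay off the midpoint of the other ages, which an uneven step from young to late middle-aged can meet as well. A peak or a dip of middle age needs 10 months to differ from both other ages in the same direction.

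The VTA lies in the ventral midbrain and holds dopaminergic neurons that project to the striatum and cortex and serve reward and motivation, together with GABAergic and glutamatergic neurons. Dopaminergic neurons are known by tyrosine hydroxylase, the rate-limiting enzyme of dopamine synthesis (Th), and by the dopamine transporter (Slc6a3). Serotonergic neurons of the raphe nuclei lie behind and close to the region, and oligodendrocytes, astrocytes, microglia and vessels are present throughout it. In such bulk tissue, fewer cells of a type and less RNA per cell cannot be told apart.

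The dissected tissue carried the markers of its label. Slc6a3 lay between 13.8 and 14.2 in the 11 samples and Th between 12.7 and 14.0, where all values of the arrays ran from 2.40 to 14.7. The 10 months samples spread the most, with a median standard deviation (SD) over probe sets of 0.207 against 0.161 at 2 months and 0.174 at 18 months, and 10 months arrays 2 and 3 were the least alike of any pair of the same age (r = 0.967 over probe sets). The excess of 3′ over 5′ signal in Actb and Gapdh, which tells how much of a transcript was copied before labelling, averaged 3.47 ± 0.17 (SD, n = 3) in young mice. It was 2.15 ± 0.34 at 10 months and 1.98 ± 0.24 at 18 months (SD, n = 4 each). Its 10 months contrast was -0.58. A permutation test set the 10 months mean against the mean of all other samples, without weighting by age. It gave an exact two-sided permutation p of 0.33 over 330 splits, with an adjusted p of 0.667 over 3 control measures. The contrast was -0.10 for the added poly-A controls and -0.23 for the hybridisation controls. The same test gave an exact permutation p of 0.573 and of 0.667 for them. The poly-A controls rose with age without overlap, a rise that a contrast with the midpoint does not show. They averaged 6.06 ± 0.09 (SD, n = 3) at 2 months, 6.38 ± 0.09 at 10 months and 6.90 ± 0.33 at 18 months (SD, n = 4 each). The 3′ excess separated 2 months from both later ages, and the poly-A controls separated all ages. The part of either measure in the differences between ages below was not tested.

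No probe set passed the test of the 10-month contrast. Of 45037 probe sets, 0 were called higher at 10 months (0% of those tested) and 0 lower (0%) by limma, at an adjusted p under 0.05 and more than 1.3-fold, and the smallest adjusted p was 0.165. At an unadjusted p under 0.05, 1204 probe sets lay higher (2.67%) and 1259 lower (2.8%), a sum of 2463. With 20 equal bins of p, the lowest held 2463 probe sets where an equal share is 2252. That sum was 7757 without 10 months array 3, 1532 without 10 months array 1 and 1500 without 2 months array 1, and no probe set was called in any of these. With all 12 arrays separate, 2 probe sets were called lower, of Mid1 and Foxp1 (smallest adjusted p 0.0414). A stricter test asked that 10 months differ from 2 months and from 18 months in the same direction, each with its own p. It called 0 probe sets, with a smallest adjusted p of 1, and 163 (0.362%) passed at an unadjusted p under 0.05.

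**Figure D1:**
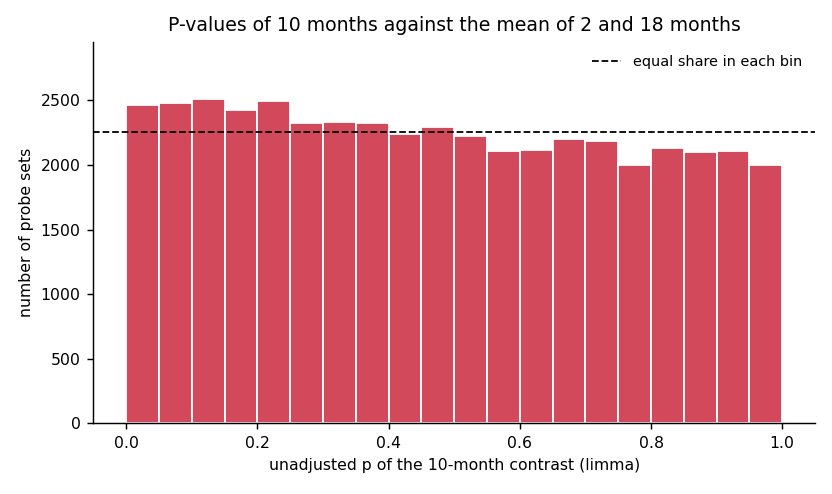
Number of probe sets (vertical axis) by unadjusted limma p of the 10-month contrast (horizontal axis, 20 bins), with a dashed line at an equal share of 2252 per bin. The bins held between 1996 and 2513 probe sets, and the lowest bin held 2463, close to its neighbours.

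The intervals bound how large a peak or dip could be. Over 18193 genes, each at its brightest probe set, the contrast had a median of 0.03 with quartiles of -0.07 and 0.12. The median standard error (SE) was 0.13 and the median half-width of the 95% interval 0.28. For 8609 genes (47.3%) the whole interval lay within 1.3-fold of no difference, and for 17812 genes (97.9%) it lay within 2-fold. The contrast exceeded 1.3-fold upward in 326 genes and downward in 346. In 4 genes it exceeded 2-fold, Tph2, Slc6a4, Tpbg and Lcn2, of which Tpbg and Lcn2 were named after their values were seen, and each of the 4 had overlapping ages. Tpbg, a membrane glycoprotein gene, had a contrast of -1.02 ± 0.32 (SE), and its other probe sets gave -0.69 and -0.02.

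The mean at 10 months lay above both other means in 12837 probe sets (28.5%), below both in 9765 (21.7%) and between them in 22435 (49.8%). Among the 2463 probe sets with an unadjusted p under 0.05, it lay outside in 1992 (907 above and 1085 below) and between in 471. In 2096 of them (85.1%) the difference from 2 months was the larger one, against 57.3% of all probe sets. The contrast that chose the 2463 probe sets holds both differences, so nothing is read from these shares. Both differences exceeded 1.3-fold in 42 genes upward and 89 downward. All 10 months samples lay above every other sample in 68 probe sets (0.151%) and below every other sample in 53 (0.118%). Counted by gene, these were 32 and 13, and 5 of those genes had both differences over 1.3-fold, Cnbd2 and Gjb1 upward and Mid1, Mrc2 and Ap1s3 downward. If age did not matter, each of the 330 ways to choose 4 of the 11 samples would lie highest equally often. A share of 1 in 330 is above both 0.151% and 0.118%, so the counts without overlap are not read as an excess.

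**Figure D2:**
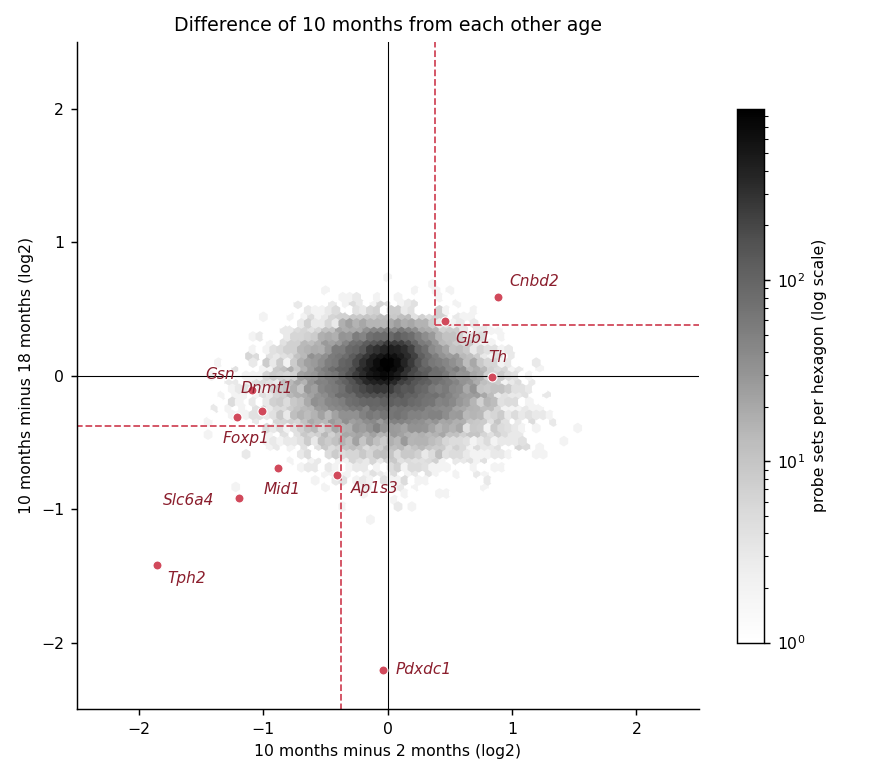
Difference of 10 months from 2 months (horizontal axis, log2) against that from 18 months (vertical axis, log2) for all 45037 probe sets as grey hexagons, with probe sets named in the text in red. The 10 months samples enter both axes, and the dashed corners mark where both differences exceed 1.3-fold, upper right for peaks and lower left for dips. Mid1, Slc6a4, Tph2 and Ap1s3 lie in the lower corner, Cnbd2 and Gjb1 in the upper one, while Th, Gsn, Dnmt1 and Foxp1 lie along the horizontal axis and Pdxdc1 on the vertical one.

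The clearest dip was that of Mid1, which encodes a microtubule-bound E3 ubiquitin ligase. Its levels were 7.31, 7.55 and 7.57 at 2 months, 6.59, 6.51, 6.59 and 6.69 at 10 months, and 7.26, 7.54, 7.30 and 7.05 at 18 months. The 10 months samples lay close together and at least 0.36 below all others, and 18 months overlapped with 2 months. The contrast was -0.79 ± 0.10 (SE), or 1.73-fold lower, with an unadjusted p of 7.34e-06 and a limma adjusted p of 0.165. The difference from 2 months was -0.88 (limma adjusted p = 0.026) and that from 18 months -0.69 (limma adjusted p = 0.847), so that a fall from 2 to 10 months passed the test and a return by 18 months did not. It also had the smallest p of the stricter test (7.24e-05 unadjusted). The other 2 probe sets of Mid1, both below the lower quartile of all levels (4.57), gave -0.13 and -0.09. With the first principal component as a covariate the Mid1 contrast was -0.79 (limma adjusted p = 0.0285). With the 3′ excess as a covariate the smallest limma adjusted p of any probe set was 0.963. It was 0.665 with the replicate number of the titles as a block on 12 separate arrays, so Mid1 did not pass in either.

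Foxp1, a forkhead transcription factor gene, held the smallest p of the contrast, at its second-brightest probe set, which was singled out after its values were seen. The levels were 9.02, 8.74 and 8.79 at 2 months, 7.56, 7.64, 7.50 and 7.88 at 10 months, and 7.91, 7.98, 7.93 and 7.99 at 18 months. The 10 months samples lay below all others, but by only 0.03 at the nearest point to 18 months. The contrast was -0.76 ± 0.10 (SE), with an unadjusted p of 4.74e-06 and a limma adjusted p of 0.165. Most of it was the fall from 2 months, -1.21 (limma adjusted p = 0.00665), against -0.31 from 18 months (limma adjusted p = 0.847). The brightest probe set of Foxp1 gave -0.06 ± 0.09 (SE), and of its 8 probe sets 5 were negative and 3 positive.

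Mrc2, an endocytic receptor for collagen, and Ap1s3, a subunit of a clathrin adaptor, were lower in every 10 months sample too. Mrc2 was 6.26, 6.66 and 6.11 at 2 months, 5.90, 5.52, 6.07 and 6.04 at 10 months, and 6.37, 6.22, 6.13 and 6.66 at 18 months, and its nearest samples were 0.04 apart. The contrast was -0.46 ± 0.15 (SE, unadjusted p = 0.00934 and adjusted p = 0.898 by limma), and the other probe set of Mrc2 gave -0.02. Ap1s3 was 5.42, 5.24 and 5.40 at 2 months, 4.89, 5.08, 4.82 and 4.99 at 10 months, and 5.60, 6.16, 5.70 and 5.27 at 18 months. Here 18 months was the highest age and the contrast was -0.58 ± 0.14 (SE, unadjusted p = 0.00174 and adjusted p = 0.898 by limma).

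The other dips without overlap were smaller. Cep70, of the centrosome, had a contrast of -0.45 ± 0.10 (SE), and Cfap54, of the axoneme of motile cilia, -0.36 ± 0.09 (SE). Flvcr2, a transporter of brain vessels, gave -0.41 ± 0.10 (SE). The zinc finger genes Zfp423, Zfp932 and Zfp407 gave -0.43, -0.32 and -0.32. Cacna1d encodes an L-type calcium channel that takes part in the pacemaking of dopaminergic neurons. It was 8.11, 7.99 and 8.06 at 2 months, 7.82, 7.79, 7.68 and 7.83 at 10 months, and 8.16, 8.15, 7.86 and 7.92 at 18 months. Its contrast was small, -0.25 ± 0.09 (SE, unadjusted p = 0.0132 and adjusted p = 0.898 by limma), and its nearest samples were 0.03 apart. The other probe set of Cacna1d gave 0.06.

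Among genes without overlap, the largest peak was that of Cnbd2, a gene with a cyclic nucleotide-binding domain. Its levels were 6.24, 6.64 and 6.48 at 2 months, 7.25, 7.43, 7.24 and 7.43 at 10 months, and 6.60, 7.24, 6.64 and 6.52 at 18 months. The 10 months samples were alike and above all others, but 18 months array 2 reached within 0.01 of them. The contrast was 0.74 ± 0.14 (SE), or 1.67-fold higher, with an unadjusted p of 0.000208 and a limma adjusted p of 0.898. Cnbd2 rose from 2 to 10 months by 0.89 (limma adjusted p = 0.0399), while the difference from 18 months was 0.59 (limma adjusted p = 0.847). The other probe set of Cnbd2, of similar brightness, gave -0.16.

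Gjb1, the gap junction protein connexin of oligodendrocytes, lay higher by both of its probe sets. The brighter one was 8.62, 8.66 and 8.58 at 2 months, 8.92, 9.30, 9.13 and 8.96 at 10 months, and 8.53, 8.78, 8.91 and 8.46 at 18 months. All 10 months samples were above the others, the nearest by 0.01, and its contrast was 0.43 ± 0.11 (SE, unadjusted p = 0.00212 and adjusted p = 0.898 by limma). The dimmer probe set gave 0.75 ± 0.23 (SE), with overlap. The 12 measured genes of mature oligodendrocytes as a list had a median contrast of 0.04, close to the 0.03 of all genes, with 0 called.

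Slc5a9, a sodium-coupled sugar transporter gene, and Nr2c2ap, which encodes a partner of an orphan nuclear receptor, had their lowest means at 18 months. Slc5a9 was 5.27, 5.11 and 5.25 at 2 months, 5.52, 5.63, 5.33 and 5.70 at 10 months, and 5.23, 5.12, 5.09 and 5.03 at 18 months, a low level with a contrast of 0.38 ± 0.09 (SE). Another probe set of Slc5a9, of similar brightness, gave 0.09 with overlap, and the dimmer ones gave -0.05 and -0.07. Nr2c2ap was 7.96, 7.94 and 7.96 at 2 months, 8.13, 8.33, 8.24 and 8.17 at 10 months, and 7.89, 7.63, 7.91 and 7.71 at 18 months. Its contrast was 0.35 ± 0.08 (SE, unadjusted p = 0.00141 and adjusted p = 0.898 by limma). The remaining peaks without overlap by the same rule were Plekhd1 (0.38), C230034O21Rik (0.31), Hddc3 (0.30), Bfsp1 (0.30), Ly6i (0.28) and A630023A22Rik (0.26), each with an SE between 0.09 and 0.12. Akt1s1, an inhibitor of the mTOR complex, had a contrast of 0.58 ± 0.15 (SE) with overlap, since 2 months arrays 3 and 4 (6.79) lay above 10 months array 3 (6.68). The other probe sets of Akt1s1 gave 0.28 and -0.006.

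**Figure D3:**
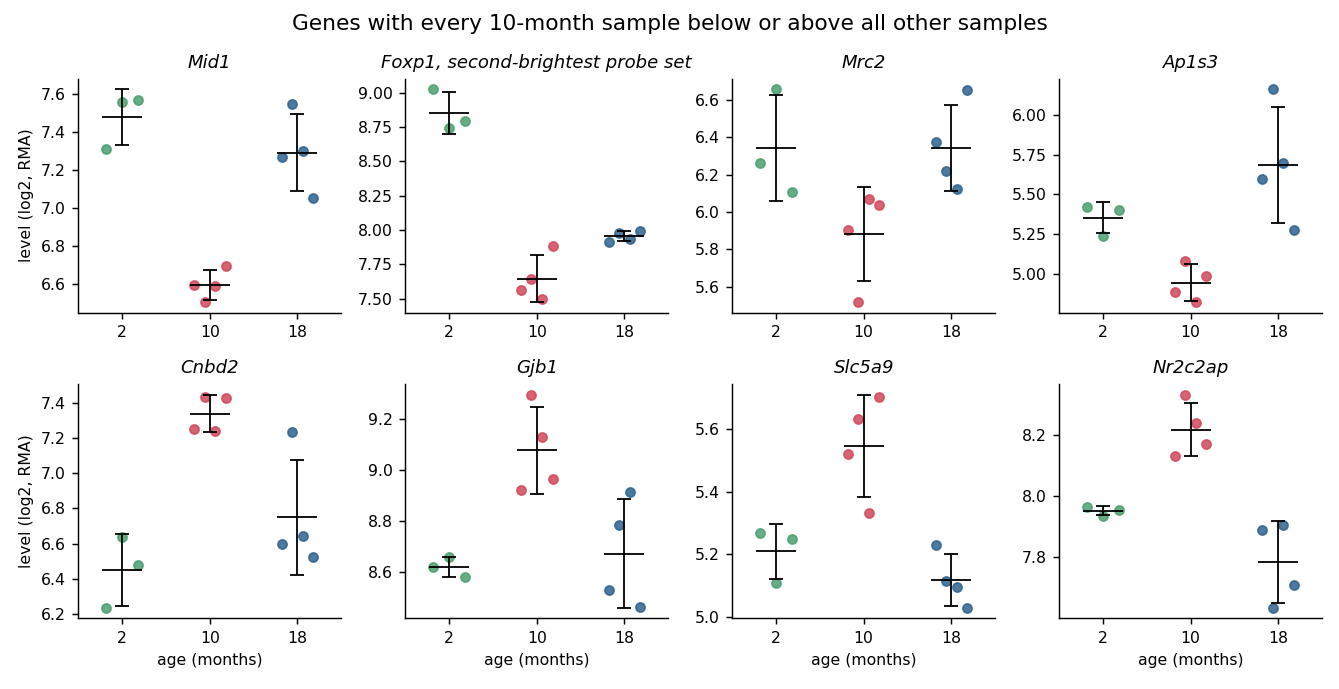
Level on the log2 scale (vertical axes, each with its own range) by age (horizontal axes) in 8 genes, with a point per sample and black bars for mean ± SD (n = 3, 4 and 4). Every 10 months sample lies below all others in the upper panels (Foxp1 at its second-brightest probe set) and above all others in the lower ones, while no 10-month contrast passed the adjusted threshold. In Foxp1, Mrc2, Cnbd2 and Gjb1 a sample of another age lies close to those of 10 months.

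In further genes of small p, from Dnmt1 to Kcna5 below, the larger step lay between 2 and 10 months. The 24 genes of smallest unadjusted p whose 10 months mean lay outside both others (12 in each direction) included 16 that were called in 10 against 2 months, 8 higher and 8 lower. Of all probe sets 1.36% were called, but the contrast that chose the 24 genes holds the same difference, so nothing is read from that count. Dnmt1, the maintenance DNA methyltransferase, was 9.59, 9.38 and 9.25 at 2 months, 8.27, 8.33, 8.49 and 8.49 at 10 months, and 8.61, 8.78, 8.48 and 8.78 at 18 months. Both later ages were below 2 months, and 18 months array 3 lay within the 10 months samples. Its contrast was -0.64 ± 0.10 (SE, adjusted p = 0.604 by limma), made up of -1.01 from 2 months (limma adjusted p = 0.0216) and -0.26 from 18 months (limma adjusted p = 0.847). The other probe sets of Dnmt1 gave -0.60 and -0.30.

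Lcor, a nuclear receptor corepressor, fell by 1.20 on the log2 scale from 2 to 10 months and then differed by -0.17 from 18 months. Gsn, the actin-severing protein gelsolin, was 12.23, 12.27 and 11.79 at 2 months, 10.76, 11.42, 10.82 and 11.03 at 10 months, and 11.23, 11.28, 10.99 and 10.97 at 18 months. Gsn fell by 1.09 on the log2 scale from 2 to 10 months (limma adjusted p = 0.0301) and 10 months overlapped fully with 18 months. In the same direction, A530058N18Rik, Vasn, Rnf14 and Atxn1l fell from 2 to 10 months by 0.96, 1.07, 0.62 and 0.58 on the log2 scale. Upward, the mitochondrial genes Clpp, a matrix protease, and Mrpl48, a ribosome subunit, rose by 0.84 and 0.91, and their differences from 18 months were 0.07 and 0.17. Pmm1 (0.82), Dgka (0.78), Zc3hc1 (0.78), Prim1 (0.58) and Zfp963 (0.56) also rose from 2 to 10 months. Some other probe sets of these genes went the other way between 2 and 10 months. They rose by 0.27 and 0.39 for Rnf14, by 0.12 for Lcor and by 0.02 for Atxn1l. For Prim1 the difference was -0.15 and for Mrpl48 -0.33. The other probe set of Vasn differed by -0.002. Kcna5, a voltage-gated potassium channel gene, had a contrast of -0.49 ± 0.12 (SE) and was not called in 10 against 2 months (-0.66, limma adjusted p = 0.0574).

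Against 18 months alone, 1 probe set of 45037 (0.00222%) was called, of Pdxdc1, which was singled out after its values were seen. Its levels were 5.31, 5.19 and 5.22 at 2 months, 5.22, 5.37, 4.90 and 5.32 at 10 months, and 7.88, 7.05, 7.90 and 6.80 at 18 months. The value at 10 months was that of 2 months, and 18 months stood apart from both by about 2.2, with a difference of -2.21 (limma adjusted p = 0.0345). The contrast of -1.12 ± 0.21 (SE) thus came from 18 months alone. The brightest probe set of Pdxdc1, an enzyme gene of the decarboxylase family, gave a contrast of 0.43 and the other 2 gave 0.03 and 0.02.

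No dopaminergic gene passed the test at 10 months. Of 20 measured genes of the list, 12 contrasts were positive and 8 negative, with a median of 0.05 against 0.03 over all genes, and 0 were called in either direction. Th was 12.7, 13.0 and 13.3 at 2 months, 14.0, 13.8, 13.8 and 13.8 at 10 months, and 13.8, 13.9, 13.9 and 13.8 at 18 months. Its contrast of 0.42 ± 0.11 (SE, unadjusted p = 0.00345 and adjusted p = 0.898 by limma) came from 2 months, since 10 and 18 months differed by -0.01. Slc6a3 had a contrast of 0.00 ± 0.08 (SE). Lmx1a, a transcription factor of dopaminergic development, had a contrast of 0.33 ± 0.14 (SE) at a level near 5. The lowest contrast of the list was that of Otx2, -0.44. At an unadjusted limma p under 0.05, 2 genes of the list lay higher and 1 lower.

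Serotonergic genes had the lowest median contrast of the 40 lists, -0.49 over 4 measured genes, and their samples overlapped widely. Tph2, the rate-limiting enzyme of serotonin synthesis in the brain, was 7.02, 9.79 and 7.09 at 2 months, 5.37, 8.32, 5.69 and 5.06 at 10 months, and 8.13, 6.14, 8.29 and 7.57 at 18 months. In 10 months arrays 1, 3 and 4 it lay below all other samples, while in array 2 it lay above most. The contrast was -1.64 ± 0.71 (SE, unadjusted p = 0.0399 and adjusted p = 0.898 by limma). The serotonin transporter Slc6a4 was 6.87, 8.63 and 6.67 at 2 months, 5.95, 7.46, 5.65 and 5.71 at 10 months, and 7.35, 5.81, 8.20 and 7.09 at 18 months, a contrast of -1.06 ± 0.51 (SE, unadjusted p = 0.0608). The highest sample of each age was the same for both genes, and the other 2 members, Maob and Htr1a, had contrasts of 0.22 and 0.08. The mean level of the list per sample was 7.35 to 8.51 at 2 months, 6.88 to 8.10 at 10 months and 7.29 to 8.39 at 18 months, and its part in other results was not tested.

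**Figure D4:**
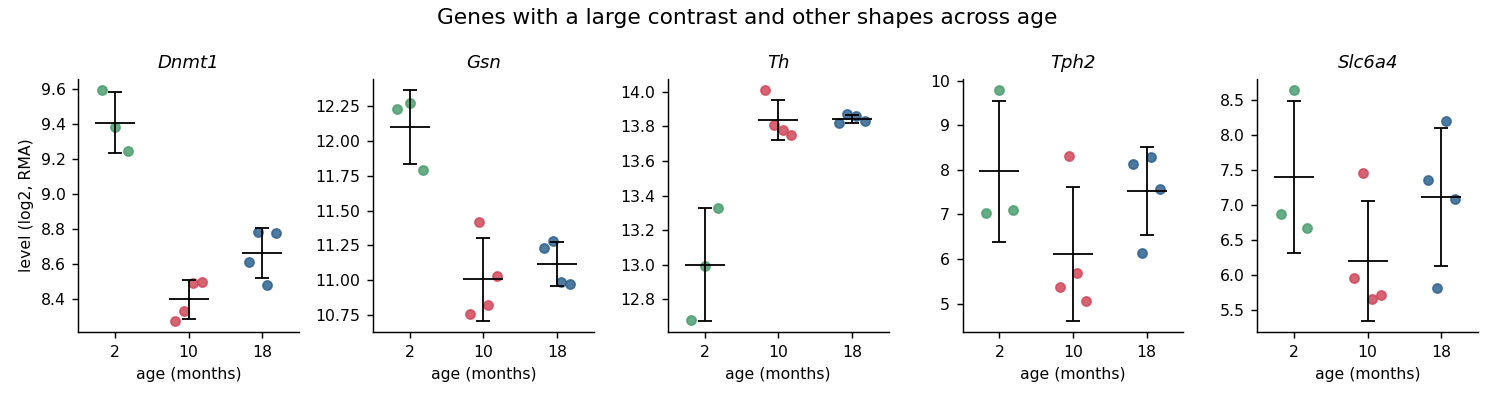
Level on the log2 scale (vertical axes, each with its own range) by age (horizontal axes) in 5 genes, with a point per sample and black bars for mean ± SD (n = 3, 4 and 4). In Dnmt1, Gsn and Th the step lies between 2 and 10 months, while in Tph2 and Slc6a4 the samples of each age spread over more than 1 on the log2 scale and overlap.

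Across the 40 lists of cell type markers and pathways, which held 610 genes, 549 were measured and 0 were called. At an unadjusted p under 0.05, 22 lay higher and 17 lower, 7.10% of the measured members against 5.51% of all genes. List medians ran from -0.49 to 0.18. Of the 549 members 2 had no overlap between 10 months and the other ages, Gjb1 above and Cacna1d below. Of all genes 0.176% lay above without overlap and 0.0715% below, and nothing is read from 2 members. The sex-linked genes varied between pools of the same age. Xist, transcribed from the inactive X chromosome, had its lowest and highest pools at 7.58 and 10.79 among the 18 months samples, and lay within 8.46 and 9.12 in the 10 months samples and within 8.80 and 9.47 in the young. Eif2s3y, a gene of the Y chromosome, spread most in the 10 months samples (lowest 7.06, highest 9.65), with 8.62 and 9.62 as the ends in the young and 7.46 and 8.64 in the oldest. The 4 measured sex-linked genes had a median contrast of -0.31, and their part in the results was not tested.

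Microglia and complement genes leaned upward. Of 20 microglia and macrophage genes, 17 contrasts were positive, with a median of 0.15, and 10 of 11 complement genes were positive, with a median of 0.18. Tmem119, a marker of resident microglia, was 8.26, 8.21 and 8.48 at 2 months, 9.0, 9.12, 8.63 and 8.96 at 10 months, and 8.80, 8.66, 9.04 and 8.80 at 18 months. It overlapped with 18 months and had a contrast of 0.36 ± 0.11 (SE, unadjusted p = 0.00869 and adjusted p = 0.898 by limma). The integrin Itgam had a contrast of 0.64 ± 0.26 (SE), and Cd59a, an inhibitor of complement, 0.28 ± 0.11 (SE). The median difference of the microglia list was -0.08 for 10 minus 18 months and 0.53 for 10 minus 2 months. Without 10 months array 2 the medians of the microglia and complement lists were 0.06 and 0.04, and without array 3 they were 0.32 and 0.30. The 13 astrocyte genes had a median of 0.01 and the 10 genes of oligodendrocyte precursors one of -0.01.

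Genes of chromatin and RNA splicing leaned downward. Of 21 chromatin genes, 17 contrasts were negative, with a median of -0.16 (3 lower and 3 higher at an unadjusted p under 0.05), and 9 had their lowest mean at 10 months. Apart from Dnmt1, Cbx5, a heterochromatin protein, ran the other way with 0.23 ± 0.09 (SE). Of 23 splicing genes 17 were negative, with a median of -0.13 and none at an unadjusted p under 0.05. Malat1, a nuclear long noncoding RNA, had a contrast of -0.56 ± 0.26 (SE, unadjusted p = 0.0515 by limma), and its 7 probe sets, which share 1 transcript, were all negative, from -1.10 to -0.11. The medians of both lists moved with the 10 months samples that differed most. Without array 3 they were -0.32 and -0.29, without array 2 they were -0.08 and -0.03, and with the first principal component as a covariate they were -0.07 and -0.01. Arrays 3 (69.7) and 2 (-62.4) lay at opposite ends of that component, which held 44.2% of the variance.

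Of 18 voltage-gated channel genes 14 contrasts were negative, with a median of -0.08, 7 with their lowest mean at 10 months and 0 with their highest. That median was -0.17 without 10 months array 3. Of 23 neurotransmitter receptor genes 14 were positive, with a median of 0.12, which was -0.01 with the 3′ excess as a covariate. Cacna1a, a P/Q-type calcium channel, had a contrast of -0.44 ± 0.19 (SE, unadjusted p = 0.0401) and lay only -0.04 from 18 months. The 20 synaptic vesicle genes had a median of 0.02, with Syn1 at 0.48 ± 0.19 (SE) and Syt7 at -0.44 ± 0.15 (SE). Other probe sets of Syt7 gave contrasts between 0.02 and 0.07. Syn1 differed by 0.76 from 2 months and by 0.20 from 18 months. Syt7 differed by -1.04 from 2 months and by 0.16 from 18 months, so its 10 months mean lay between the other ages. Of 28 neuropeptide genes, with a median of 0.05, Crh, the corticotropin-releasing hormone, was 10.41, 10.47 and 9.94 at 2 months, 8.47, 9.45, 9.27 and 8.97 at 10 months, and 8.90, 9.60, 9.72 and 9.07 at 18 months. It fell from 2 to 10 months by 1.23 on the log2 scale (limma adjusted p = 0.048) and overlapped with 18 months, with a contrast of -0.76 ± 0.21 (SE, adjusted p = 0.898 by limma).

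Of 23 oxidative phosphorylation genes 19 contrasts were positive, with a median of 0.10, and of 17 ribosomal protein genes 13 were positive, also with a median of 0.10. With the 3′ excess as a covariate the medians were 0.02 for oxidative phosphorylation and 0.19 for ribosomal proteins. The ribosomal median was 0.02 without 10 months array 2 and also 0.02 with the first principal component as a covariate. The 17 cholesterol synthesis genes had a median of 0.00, and Fdps, an enzyme of isoprenoid synthesis, rose from 2 to 10 months by 1.23 (limma adjusted p = 0.0312) and differed by 0.03 from 18 months. Of 18 clock genes the median was -0.03, and Arntl, a core activator of the clock, had its 10 months mean between the other ages (contrast 0.34 ± 0.12, SE).

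**Figure D5:**
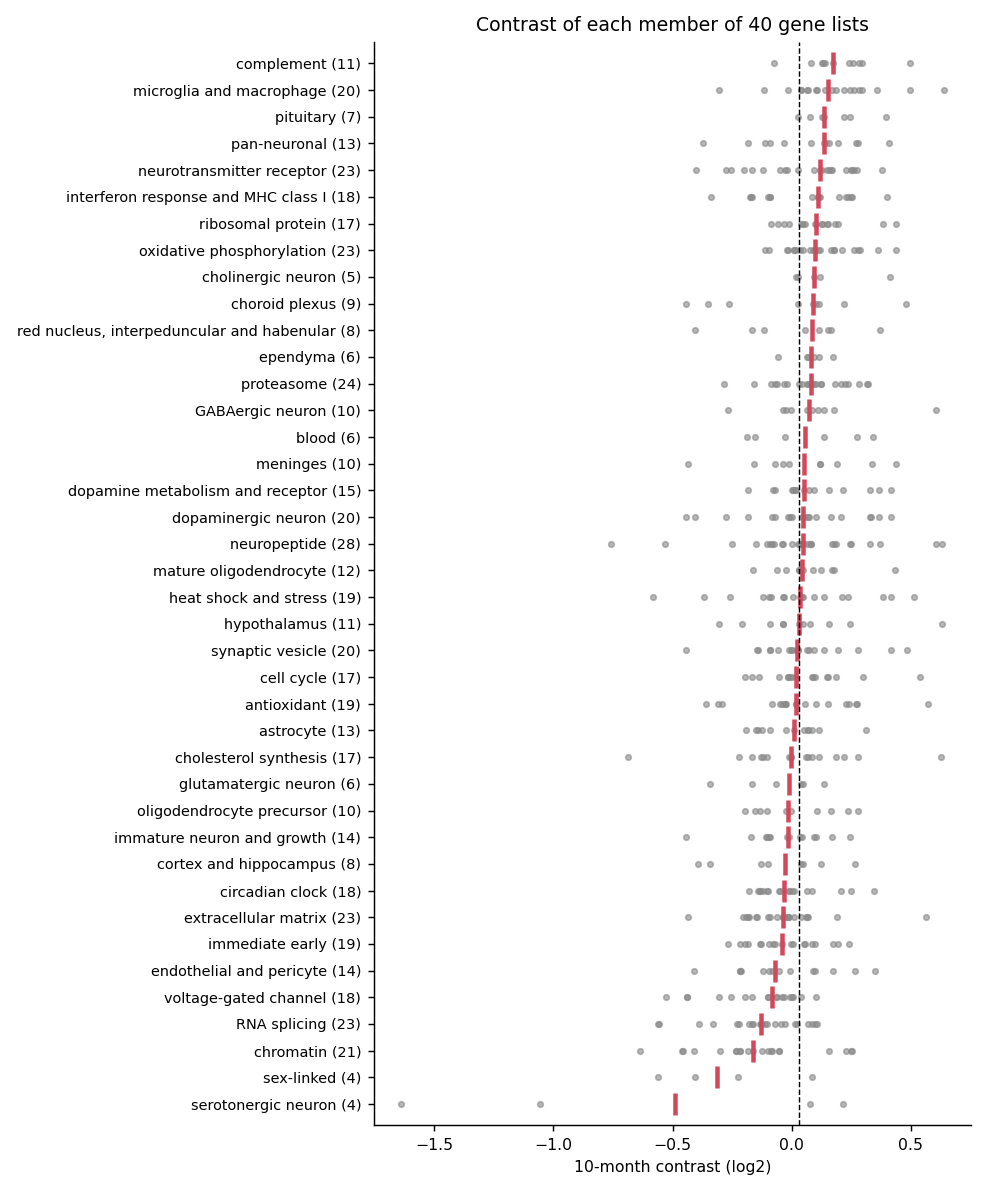
Contrast of 10 months with the other ages on the log2 scale (horizontal axis) for every measured member (grey points) of 40 gene lists (vertical axis, number measured in parentheses), with the median of each list as a red bar and the median of all genes, 0.03, as a dashed line. The medians run from -0.49 for serotonergic genes to 0.18 for complement genes, and members of nearly every list lie on both sides of 0.

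Some large values at 10 months belonged to 1 pool. Lcn2, an acute-phase protein gene of vessels and glia, was 7.52 in 10 months array 4, and it lay between 3.32 and 3.88 in the 10 other samples, so that its contrast of 1.08 ± 0.62 (SE) rested on that array. Lrg1, also an acute-phase gene, was 7.57 in the same array against at most 5.81 elsewhere. Ch25h, an interferon-induced sterol hydroxylase, was 7.36 there against at most 6.20. These were the 3 probe sets at which array 4 exceeded every other sample by more than 1 on the log2 scale. In 10 months array 1 there were 2, of the pituitary hormones Prl (5.86 against at most 4.81) and Gh (5.07 against at most 3.93 at a dim probe set). By the same gap, array 3 exceeded every other sample at 5 probe sets and array 2 at 2. Array 2 also lay more than 1 below every other sample at 18 probe sets. The 7 pituitary genes of the list were all positive, with a median of 0.13. The genes of these pools, other than Prl and Gh, were singled out after their values were seen.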

How the data were processed

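Total RNA of pooled VTA was amplified, biotin-labelled and hybridised to Affymetrix mouse arrays with 45101 probe sets. The deposited values are log2 expression per probe set, which the authors made by RMA (background correction, normalisation and summarisation across arrays). Per the submitters' notes limma 3.4.5 was used as well. Precision is limited by the number of arrays, which have no read depth. P-values measure the spread between pools.

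The 64 control probe sets were left out. Array annotation named 34945 probe sets with 1 gene, 932 with several and 9160 with none, and only the first were named. Of these, 34741 matched a reference gene table by gene number and 0 symbols changed. A mean per age was fitted with limma 3.58.1 in R 4.3.3 without covariates, and the contrast, both pairwise differences and the stricter peak and dip test (the larger of both pairwise p-values where the signs were equal) came from this fit. Benjamini-Hochberg adjustment ran over 45037 probe sets, and a call needed an adjusted p under 0.05 and more than 1.3-fold. The fit was tested on simulated data. RMA and probe sets that can match related transcripts may narrow differences.

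Genes are named at their brightest probe set, if above the lower quartile of levels: the 12 of smallest p per direction with the 10 months mean outside both others, since none was called; the 10 per direction with the largest difference from the nearer age and no overlap; the 2 of smallest p in each of 40 lists; and Th, Slc6a3, Crh, Ttr, Actb and Gapdh. The contrasts of Ttr (-0.35 ± 0.58, SE) and Actb (0.16 ± 0.17, SE) were within their intervals of 0, and Gapdh had no named probe set. The comparison, rule and lists were chosen with earlier results of these data known. Lists are described by counts and medians, with no test. Alternatives are given in the closing section.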

Additional observations from a re-analysis of the deposited data

Results flagged for a closer look

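Values far from the rest of their age were looked for in 238 groups of 4 samples at 10 and at 18 months. These were the named genes without the sex-linked Xist and Eif2s3y, and the control measures. The groups also held the probe sets of Foxp1, Lcn2, Pdxdc1 and Tpbg singled out after their values were seen. In 22 of them the gap of the highest or lowest sample, divided by the range of the group, exceeded Dixon's 95% limit, where chance gives about 1 in 20 groups. Array 4 held Lcn2 at 7.52 (3.39 to 3.88 in the other 10 months samples), Pmm1 at 10.73 (10.96 to 11.00) and Rnf14 at 11.10 (10.95 to 10.96). Array 3 held Atxn1l at 9.50 (9.30 to 9.32), Sst at 6.98 (8.99 to 9.15), Neurod6 at 7.90 (6.55 to 6.76), Rplp0 at 11.89 (12.57 to 12.66) and Psmc5 at 12.46 (12.10 to 12.13). Array 2 held Hddc3 at 8.54 (8.09 to 8.14), Slc6a4 at 7.46 (5.66 to 5.95) and Slc6a13 at 7.69 (6.83 to 6.95). Array 1 held Prl at 5.86 (4.50 to 4.73) and Cd59a at 9.52 (9.33 to 9.34).

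At 18 months, array 1 held Clpp at 10.76 (10.96 to 10.99 in the other 18 months samples), A530058N18Rik at 7.37 (7.07 to 7.11), Zfp932 at 9.41 (9.21 to 9.22) and Cldn5 at 9.69 (10.44 to 10.57). Array 2 held Cnbd2 at 7.24 (6.52 to 6.64) and Kcna5 at 7.30 (7.03 to 7.03). Array 3 held C230034O21Rik at 8.51 (8.78 to 8.80), Sgk1 at 10.29 (11.65 to 11.89) and Glrb at 11.55 (11.65 to 11.66).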

How the results depend on the processing

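The count of 0 calls in the 10-month contrast remained 0 with median centring, with dim probe sets left out, with array weights, with a trended and robust variance, with a covariate for the 3′ excess of Actb and Gapdh, without the fold threshold, when any 1 sample was left out, and when 10 months arrays 2 and 3 were left out together, an alternative chosen after seeing the data. With 12 arrays separate it was 2 (0 higher and 2 lower), and with the first principal component as a covariate it was 4 (1 higher and 3 lower), of Foxp1, Mid1, Pdxdc1 and a probe set with no named gene. The cause was not tested. With the replicate number of the titles as a block on 12 separate arrays (replicate block) the count was 0, with a smallest adjusted p of 0.665. Deviations of samples of the same number had correlations from -0.611 to 0.431 over all probe sets. By these, 0 samples were closest to their own number, so no pairing by number was seen. A smaller effect shared by samples of the same number would not show in this check. Unadjusted p under 0.05 was reached by 1500 to 7757 probe sets over the settings, 6971 with array weights and 5039 with the principal component. The peak and dip test called 0 under each setting run, with a smallest adjusted p of 1. Of 118 genes and probe sets recomputed, 107 kept the sign of their contrast in each setting and 11 did not, and none of the 11 passed the threshold. With the 3′ covariate the contrast turned in Stmn2 (-0.00396), Prl (-0.163), Xist (0.719), Vip (0.0833), Fzr1 (-0.127), Cdk4 (-0.05), Slc6a3 (-0.0115) and Actb (-0.311). That of Slc6a3, close to 0, was also -0.0132 with 12 arrays separate, with or without the replicate block, -0.0344 with array weights, and from -0.0191 to 0.03 when 1 sample was left out. Without 10 months arrays 2 and 3 it was -0.00988, while Sim1 gave 0.0363 and Foxj1 -0.0101. Ttr ran from -0.91 to 0.0562 when 1 sample was left out, the highest without 2 months array 1. Recomputing every named gene was chosen after seeing the data. In all, 5 values passed the threshold where they had not before, of Mid1, Foxp1 and Pdxdc1 in the settings with 2 and 4 calls. The number of samples (n = 3, 4 and 4) limits the precision, with a median SE of 0.13.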
